A study of Homo sapiens with 8 samples.

Results

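ADAM proteases are membrane-anchored enzymes of the metalloprotease family, and many of them act as sheddases, which cut the outer part of other membrane proteins off the cell surface. Here 10 of the 34792 genes summed were followed, namely ADAM8, ADAM9, ADAM10, ADAM12, ADAM15, ADAM17, ADAM19, ADAM22, ADAM23 and ADAM33. They were chosen by the doxycycline contrast itself, because ADAM9 reads fell in it, and the other 9 genes were taken as its relatives to be set beside it. The ADAM9 values below are therefore a description, and nothing is read from whether it was called.

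The study addressed which transcripts depend on FEZF1, a zinc finger transcription factor, in A673 cells, an established Ewing sarcoma line. All 8 libraries came from A673/TR/shFEZF1 cells, a derivative of 1 clone with the tetracycline repressor, which carry a FEZF1 shRNA that doxycycline switches on. Polyadenylated RNA was sequenced from 4 untreated cultures and from 4 cultures given doxycycline at 1 µg/mL for 72 h. Each group held 1 culture of the population labelled bulk, called polyclonal below, and 1 each of clones 3, 5 and 6. Each clone line stems from 1 clone, and clones had been picked for strong FEZF1 loss under the drug. The untreated cultures carried the same shRNA construct, blasticidin, puromycin and zeocin were in the medium of all cultures, and no culture treated with doxycycline but lacking the shRNA was analysed here, so the effects of the drug and of the shRNA cannot be told apart.

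The libraries held between 26719886 and 42422421 assigned reads, of which 89.9% to 91.1% fell on transcripts that could be matched to a gene symbol. FEZF1, the targeted gene, had 96.3, 70.4, 107.1 and 74.3 counts per 1000000 matched reads (CPM) in the untreated polyclonal, clone 3, clone 5 and clone 6 cultures, and 60.5, 42.9, 60.7 and 36.4 CPM with doxycycline. Its 2 groups did not overlap, and the untreated level exceeded the treated one by 1.59, 1.64, 1.76 and 2.04 times in the 4 pairs in that order. The Ewing sarcoma markers CD99, NKX2-2, NR0B1, STEAP1 and PRKCB were all expressed, with means of 63.0 to 1523 CPM in untreated cells. Of markers of other cell types, the T cell gene CD3E had no reads in any library and the leukocyte gene PTPRC averaged 0.0327 CPM untreated and 0.0569 CPM with doxycycline. KRT18, a keratin of simple epithelia, averaged 114 CPM untreated and 159 CPM with doxycycline, and it was 1 of 3 called markers of 11 tested, all higher with the drug, with NKX2-2 and NR0B1. The part of these marker differences in the ADAM values was not tested. In RNA from whole cultures, fewer cells of a kind and less RNA per cell cannot be told apart.

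An ADAM protease is made as an inactive precursor, and furin-like enzymes remove its prodomain on the way to the surface. The catalytic domain holds a zinc ion between 3 histidines, with a glutamate that activates the water molecule used in cleavage, and the disintegrin and cysteine-rich domains behind it bind substrates and integrins. ADAM10 is best known as the sheddase of Notch, cadherins and the amyloid precursor protein, and ADAM17 as that of TNF and the ligands of the EGF receptor. ADAM22 and ADAM23 lack protease activity and serve as receptors for secreted LGI proteins at synapses.

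The coding bases of this zinc site separate the proteases from the relatives without enzyme activity. A pattern of histidine, glutamate, any 2 residues, histidine, any 2, glycine, any 2, histidine and aspartate was found in the canonical protein of 8 of the 10 genes, ADAM9 among them, and in 26 of 20020 proteins searched. The stretches below are 36 coding bases each, 5′ to 3′, from the GENCODE 44 canonical transcripts on GRCh38, with the codons of the 3 zinc-binding histidines and of the catalytic glutamate in capitals. They are shown for 4 proteases and for ADAM22 and ADAM23, whose stretches were placed by alignment to ADAM12.
ADAM10: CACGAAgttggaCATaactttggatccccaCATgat
ADAM17: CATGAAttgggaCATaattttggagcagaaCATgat
ADAM15: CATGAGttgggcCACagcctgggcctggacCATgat
ADAM19: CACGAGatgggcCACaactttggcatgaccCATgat
ADAM22: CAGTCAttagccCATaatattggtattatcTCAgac
ADAM23: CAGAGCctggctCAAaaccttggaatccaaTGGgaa
In ADAM22 and ADAM23 the aligned codons in capitals no longer spell the full set of zinc ligands, which is the known reason for counting them as inactive enzymes.

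The shRNA expressed with doxycycline is aimed at 21 bases of FEZF1 that span the joint of exon 1 and exon 2, with 1 base in exon 1 and 20 in exon 2, on the minus strand at chr7:122303292-122303637 of GRCh38. The target is shown because it lets the ADAM transcripts be searched for the same letters, with the 7 bases that would pair with bases 2 to 8 of the guide strand in capitals.
shFEZF1 target: ggtctttaatgcgCACTATAa
The longest run of the target found in the ADAM9 canonical transcript was 7 bases, and 66.3% of all genes shared a run of at least that length. The letters CACTATA, searched on the sense strand, were absent from the ADAM9 transcript. They occurred in the 3′ UTR of 1 of the 10 genes, ADAM22, and in that of 1192 of 19526 genes, or 6.10%. Outside the 3′ UTR they also lay in the transcript of ADAM23, whose longest run of the target was 10 bases. A run of at least that length occurred in 1.15% of all genes. A match of this kind is a description of letters and not of a site in use, and a missing match says nothing about other routes.

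ADAM9, a broadly expressed protease that cuts several growth factor precursors and adhesion proteins, was lower with doxycycline in all 4 pairs. The values cover its matched transcripts, which hold 32.9% of the gene's mean count in the authors' table. It stood at 65.5, 100.7, 68.5 and 60.1 CPM in the untreated polyclonal, clone 3, clone 5 and clone 6 cultures. With doxycycline it stood at 31.4, 19.1, 6.53 and 4.75 CPM in the same order. The lowest untreated library was above the highest treated one, so the groups did not overlap. The means were 73.7 ± 18.4 CPM (SD, n = 4) untreated and 15.4 ± 12.4 CPM (SD, n = 4) with the drug.

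The size of the ADAM9 difference varied between the pairs far more than the untreated level did. Untreated exceeded treated by 2.09 times in the polyclonal population, 5.27 times in clone 3, 10.5 times in clone 5 and 12.65 times in clone 6. That order of the pairs was also the order of the FEZF1 differences, which spanned a much narrower range. The 4 pairs are too few for a correlation, and a link between the ADAM9 and FEZF1 differences was not tested. In the model of all genes, with origin as a block, the log2 fold change of ADAM9 was -2.52 (SE 0.39), and it lay between -3.09 and -2.21 when each pair was left out in turn. Without the clone 5 pair, whose untreated file differs in layout from the other files, it was -2.27. The reads behind it numbered 2589, 3201, 1888 and 1495 untreated and 1023, 658, 197 and 113 treated.

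**Figure D1:**
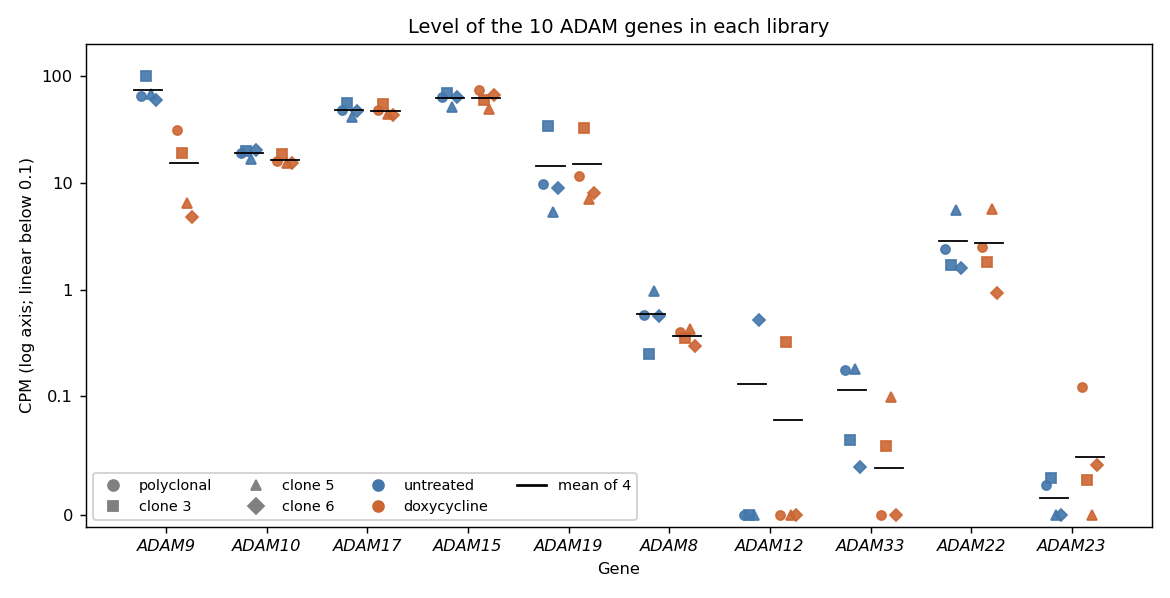
Each point is 1 library, placed by its CPM on a log axis that is linear below 0.1, with genes along the x axis, untreated libraries in blue, doxycycline in orange, the shape giving the origin and the bar the mean of 4. ADAM9 is the gene whose groups separate, with untreated libraries at 60.1 to 100.7 CPM and treated ones at 4.75 to 31.4 CPM.

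A limit of this measurement lies in the transcripts behind it. The files list transcripts of an older RefSeq release, and 72.6% of the 158867 listed could be matched to a symbol, with 99.2% of the curated ones but 50.3% of those predicted by annotation software. Against the mean count that the authors' own gene table gives over all samples, the matched transcripts recovered 32.9% for ADAM9 and 12.7% for ADAM10. For ADAM15, ADAM17 and ADAM19 they recovered 99.0%, 93.7% and 99.0%. The ADAM9 and ADAM10 values therefore cover a minority of their reads, and how the rest behaved is not known from the sums given here. The matched share was 87.0% for ADAM8, 70.0% for ADAM22 and 23.1% for ADAM12.

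Of the 5 matched ADAM9 transcripts, a pair held nearly all of the reads. The protein-coding transcript NM_003816.3 took 52.3% of the ADAM9 reads in untreated cells, and NR_027878.1, which RefSeq lists as noncoding, took 46.2%. NM_003816.3 was estimated at 35.0, 53.2, 46.6 and 17.6 CPM in the untreated polyclonal, clone 3, clone 5 and clone 6 cultures and at 18.7, 7.77, 0 and 0 CPM in the treated ones. NR_027878.1 was estimated at 28.8, 46.5, 21.3 and 41.6 CPM untreated and at 12.6, 10.00, 5.91 and 4.75 CPM with doxycycline.

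Both transcripts were estimated lower with doxycycline in every pair. They differed in clones 5 and 6, where no read was assigned to NM_003816.3 with the drug while NR_027878.1 kept some. These are zeros of an estimate and do not bound the level of NM_003816.3. Salmon, the program behind these estimates, divides reads between transcripts that share most of their sequence. The error of that division was not given, so the split is less certain than the sum. The sum is open to the same kind of error, since reads may also be divided with ADAM9 transcripts that were not matched. The part of such a division in the lower sum was not tested.

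**Figure D2:**
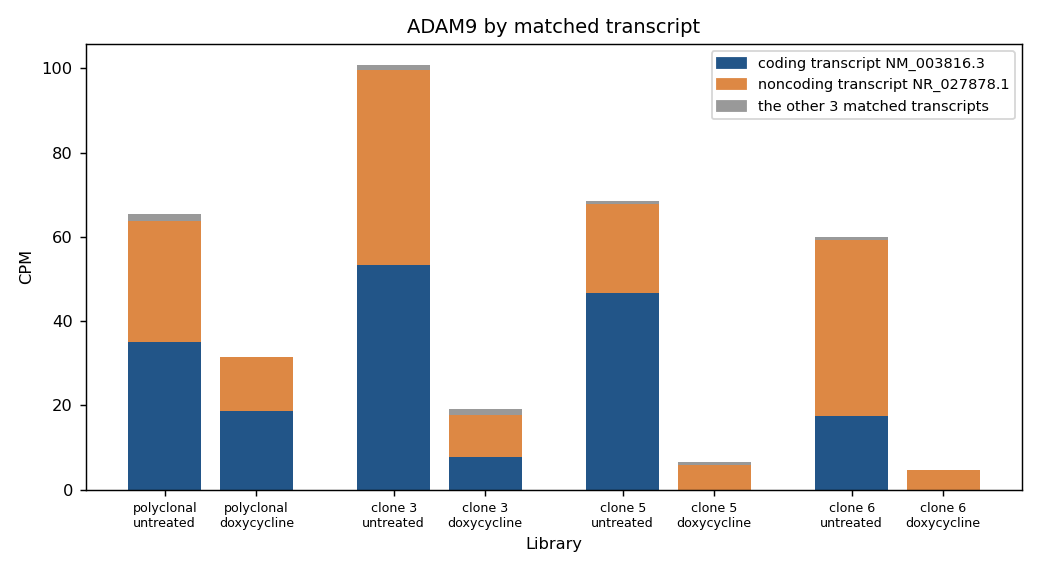
Stacked bars give the CPM of ADAM9 by matched transcript in each of the 8 libraries, with each untreated library beside its treated partner. Both main transcripts shrink in every pair, and the coding one is at 0 CPM in treated clones 5 and 6.

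Of the most studied sheddases, ADAM17 stayed close to its untreated levels, and so did the matched part of ADAM10. That part holds 12.7% of the mean count of ADAM10, and how the rest behaved is not known. ADAM17 stood at 48.6, 55.5, 41.7 and 47.2 CPM untreated and at 48.0, 55.0, 44.3 and 43.2 CPM with doxycycline, in the order polyclonal, clone 3, clone 5, clone 6. Its log2 fold change was -0.02 (SE 0.06), its groups overlapped, and clone 5 went the other way from the rest. ADAM10 stood at 19.1, 19.8, 16.7 and 20.2 CPM untreated and at 16.1, 18.6, 15.5 and 15.3 CPM with doxycycline. It was lower in 4 of 4 pairs, as were 15.9% of all genes tested, with a log2 fold change of -0.21 (SE 0.09) and overlapping groups. These ADAM10 values rest on 2 curated transcripts, and the split between them differed from library to library, with NM_001110.4 at 0 CPM in 4 of the 8.

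ADAM15 and ADAM19 are catalytically active relatives, ADAM15 with an integrin-binding motif in its disintegrin domain and ADAM19 with a role in neuregulin processing and heart development. ADAM15 stood at 63.4, 68.9, 51.4 and 63.7 CPM untreated and at 74.5, 60.2, 48.8 and 67.2 CPM with doxycycline. It was lower in 2 pairs and higher in 2, with a log2 fold change of 0.01 (SE 0.08), whose sign changed with the scaling of the libraries and with the pairs kept. ADAM19 stood at 9.69, 34.0, 5.37 and 8.96 CPM untreated and at 11.5, 32.8, 7.13 and 8.11 CPM with doxycycline, with a log2 fold change of 0.11 (SE 0.11). Clone 3 was far above the other origins in both groups, so that ADAM19 differed between origins by 6.34 times in untreated cells and between treatments by far less.

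The remaining members were low. ADAM22, one of the receptors without protease activity, stood at 2.38, 1.70, 5.62 and 1.61 CPM untreated and at 2.48, 1.83, 5.70 and 0.925 CPM with doxycycline, with a log2 fold change of -0.11 (SE 0.20). Clone 5 was highest in both groups, and clone 6 alone was lower with the drug. With curated transcripts only, the log2 fold change of ADAM22 was -0.43, and it was not called there either. The matched transcripts hold 70.0% of the mean count of ADAM22. ADAM8, a protease known mainly from leukocytes, ranged from 0.252 to 0.979 CPM untreated and from 0.294 to 0.431 CPM with doxycycline, with a log2 fold change of -0.59 (SE 0.35) that rested on 117 reads in all.

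ADAM12, ADAM23 and ADAM33 were below the level needed for the test. ADAM12, a protease of muscle precursors and placenta, had 13 reads in the untreated clone 6 library, 11 in the treated clone 3 library and 0 in the other 6. ADAM23, the second LGI receptor of the set, had 8 reads over all libraries, and ADAM33, a protease of mesenchymal cells, had 20. At this depth 0 reads allow up to 0.076 to 0.126 CPM, an interval for counting error only, so no difference could be detected for these genes.

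**Figure D3:**
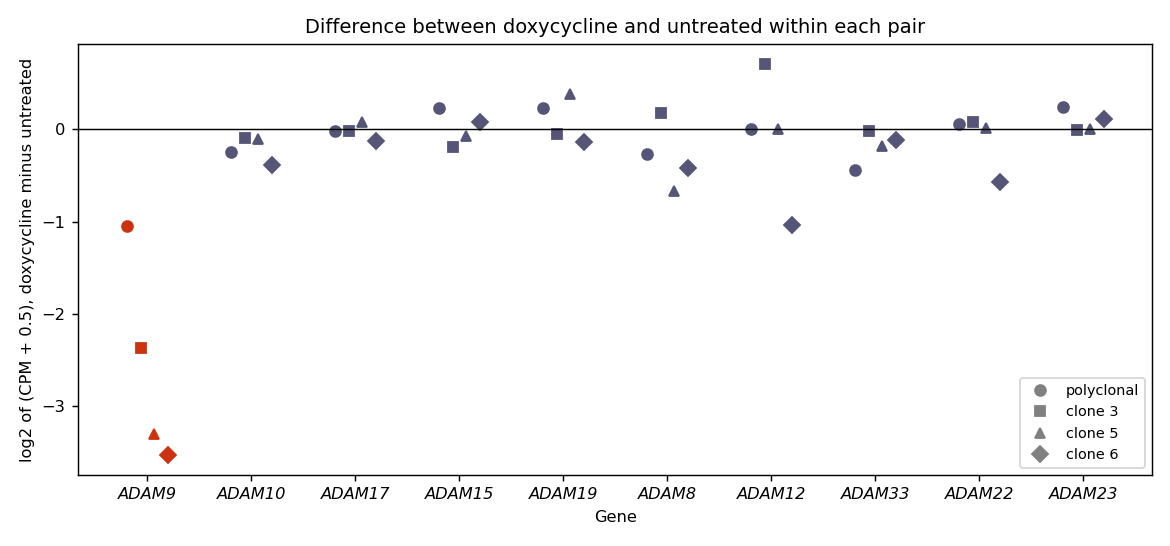
Each point is 1 pair of cultures, placed by the log2 of CPM plus 0.5 with doxycycline minus the same untreated, with genes along the x axis. The 4 ADAM9 points run from -1.05 to -3.53, while no pair of ADAM10, ADAM15, ADAM17 or ADAM19 lies further than 0.39 from 0.

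TPM, in which transcript counts are divided by length and scaled to a fixed total per library, allows levels to be compared between genes. In untreated cells the mean levels were 38.3 ± 5.29 TPM for ADAM15, 30.8 ± 7.74 TPM for ADAM9, 18.6 ± 2.51 TPM for ADAM17, 3.74 ± 3.38 TPM for ADAM19, 2.82 ± 0.28 TPM for ADAM10 and 1.33 ± 0.70 TPM for ADAM22 (SD, n = 4 each). ADAM8 was at 0.315 ± 0.15 TPM, and the other 3 genes were below 0.1 TPM on average. Neighbours ADAM15 and ADAM9 overlapped, as did ADAM19 and ADAM10, whereas every untreated ADAM9 library was above every ADAM17 library. With doxycycline the matched ADAM9 transcripts were at 6.70 ± 5.55 TPM, with the highest library at 13.8 TPM, and ADAM17 was at 18.4 ± 2.91 TPM, with the lowest at 15.4 TPM. Since ADAM9 and ADAM10 were matched in part, their levels are minimum levels. Whether ADAM9 was below ADAM15, or ADAM10 below ADAM19, ADAM17 and the others above it, is therefore not known. The order of ADAM9 and ADAM17 in treated cells is not known either.

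Among the 15993 genes tested, 1221 (7.63%) were called at an adjusted p under 0.05, with 625 (3.91%) lower and 596 (3.73%) higher with doxycycline. Of the 10 members 7 could be tested and 1, ADAM9, was called, and nothing is read from that count because the contrast chose it. Groups of 4 that did not overlap occurred in 4.94% of genes tested and, among the 7 members tested, in ADAM9. The median log2 fold change was -0.11 over those 7 and 0.00 over all genes. These calls rest on pairing the cultures by origin, since the same test without the pairing called 1 gene, or 0.00625%, and no member, while 1155 genes and 1 member had an unadjusted p under 0.05 in it. With the pairing, the p-values measure how the treatment difference varied over 4 pairs of cultures of 1 cell line.

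Genes that act with the ADAM proteases were taken from 10 lists of 156 genes, of which 125 were tested. In these, 5 genes were called higher and 10 lower, or 12% beside the 7.63% of all genes, and the median log2 fold change was -0.07. All 15 were also called by DESeq2 and kept their direction when any 1 pair was left out, though 8 of the 15 kept a call in at least 1 of those 4 smaller fits. TSPAN15, CDH2, ROBO1, SORL1, NCSTN, MMP1 and ITGB5 were called in none of them. With curated transcripts alone, the calls of CDH2, ROBO1, SORL1, DLG2, MMP1, ADAMTS1, ITGA7 and ITGB5 were lost. No list gene was called without the pairing, where 10 had an unadjusted p under 0.05.

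Genes that bring ADAM proteases to the surface, cut their prodomains or inhibit them held 2 of the called genes. Of 18 tested maturation and trafficking genes, which include furin-like convertases, the iRhoms and the tetraspanins of ADAM10, 1 was called. TSPAN15, a tetraspanin that binds ADAM10, rose by 0.74 on the log2 scale (SE 0.14, adjusted p = 0.0246), from 3.97 ± 1.03 to 6.59 ± 1.38 CPM, and was higher in 4 of 4 pairs. Of 5 protease inhibitors tested, TIMP3, an inhibitor of ADAM17 and other metalloproteases held in the matrix, rose from a range of 256 to 348 CPM to one of 354 to 591 CPM. Its log2 fold change was 0.48 (SE 0.08, adjusted p = 0.0164). None of the 4 tested genes among the other ADAM genes was called.

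Genes of proteins that ADAM enzymes cut gave calls in both directions. In the list of EGF receptors and ligands, 0 of 9 tested genes were called, and its most abundant members were NRG1 at 30.2 and 37.2 CPM, HBEGF at 20.4 and 22.7 CPM and ERBB2 at 30.3 and 31.3 CPM in untreated and treated cells. Of 39 other shed substrates tested, 1 rose, 5 fell and 33 were not called, with a median log2 fold change of -0.14. NGFR, the p75 neurotrophin receptor, rose from 63.5 ± 13.4 to 152 ± 49.6 CPM with no overlap of the groups, a log2 fold change of 1.22 (SE 0.16, adjusted p = 0.00861). It was called in each of the 4 fits with a pair left out.

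The 5 substrates that fell did so by less than NGFR rose. They were the sorting receptor SORL1 at -0.44, the TNF receptor TNFRSF1A at -0.38, the kinesin cargo adaptor CLSTN1 at -0.37, the adhesion protein CDH2 at -0.34 and the Slit receptor ROBO1 at -0.33 in log2 fold change. Their adjusted p-values ran from 0.0212 for CLSTN1 to 0.0433 for ROBO1, and each was lower in 4 of 4 pairs with overlapping groups. TNFRSF1A, for example, went from 85.8 ± 16.9 to 65.7 ± 10.0 CPM. Of 8 secretase genes, which continue cleavage after an ADAM enzyme has cut, NCSTN, a subunit of gamma-secretase, fell by 0.28 (SE 0.05, adjusted p = 0.0246).

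The other metalloproteases and the integrins that ADAM disintegrin domains can bind gave calls in both directions. Of 11 tested matrix metalloproteases, the collagenase MMP1 rose (log2 fold change 0.57, SE 0.14, adjusted p = 0.0470) and the gelatinase MMP2 fell (-0.32, SE 0.06, adjusted p = 0.0196). MMP1 in clone 3 was at 1079 CPM untreated against 168 to 316 CPM in the other 3 origins, and at 1243 CPM with doxycycline against 346 to 541 CPM. Of 15 ADAMTS proteases, secreted relatives of the ADAM family, ADAMTS1 rose from 21.3 ± 6.39 to 32.4 ± 14.7 CPM (0.55, SE 0.10, adjusted p = 0.0221).

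Of 11 integrin genes, ITGA7, a laminin-binding chain of muscle, fell from a range of 8.69 to 13.1 CPM to one of 3.91 to 4.68 CPM. Its log2 fold change was -1.36 (SE 0.16, adjusted p = 0.00730), on the 70.4% of its mean count that was matched. It was called in each of the 4 fits with a pair left out, but not with curated transcripts alone. ITGB5, a partner of the alpha v chain, fell by 0.24 (SE 0.06, adjusted p = 0.0466). Of the 5 tested LGI ligands and scaffolds of ADAM22 and ADAM23, the synaptic scaffold DLG2 fell by 0.63 (SE 0.09, adjusted p = 0.0118), on 20.4% of its mean count.

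**Figure D4:**
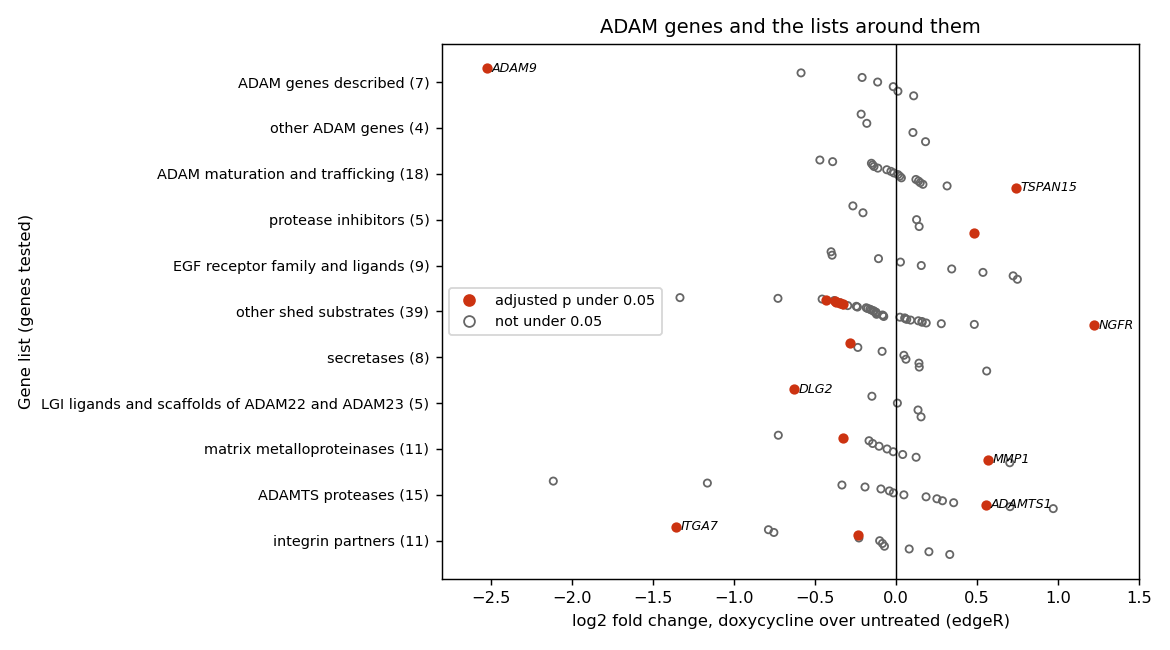
Each point is 1 gene tested, placed by its log2 fold change with doxycycline over untreated, with the members in the top line and the 10 lists below it, and filled red where the adjusted p was under 0.05. ADAM9 lies at -2.52, and nothing is read from its red fill because the contrast chose it. The called list genes lie between -1.36 for ITGA7 and 1.22 for NGFR.

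The genes whose levels followed ADAM9 most closely over the 8 libraries were sought among 13378 genes of at least 1 CPM on average, by Pearson's r of log2 CPM. They were ZBTB45 (r = 0.99), PHF2 (0.98), PARP12 (0.97), ZNF213 (0.97), ZNF629 (0.97) and INAFM2 (0.97), none of them a protease. Each was lower with doxycycline in 4 of 4 pairs, and the 8 points are 4 pairs that share an origin. ZNF213, a zinc finger gene, had the widest range of the 6 as a fold, at 21.5 to 26.6 CPM untreated and 9.04 to 18.6 CPM with doxycycline, which as a fold was still narrower than that of ADAM9.

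ADAM9 (ENSG00000168615.13) lies on the plus strand of chromosome 8 of GRCh38, from 38996754 to 39105445. The 2 nearest tested genes on each side were looked at, of which the farthest, TCIM, starts at 40153482. None of them was called lower, beside 3.91% of all genes tested, so nothing is read from that count. TM2D2, next to ADAM9, was higher with doxycycline in 4 of 4 pairs, from 36.1 ± 4.04 to 46.2 ± 7.92 CPM (log2 fold change 0.35, SE 0.08, adjusted p = 0.0392). HTRA4 beyond TM2D2 stood at 0.346 ± 0.214 and 0.355 ± 0.193 CPM in untreated and treated cells. On the other side, ADAM32, a relative expressed in testis, stood at 0.596 ± 0.204 and 0.686 ± 0.293 CPM, and TCIM at 5.90 ± 1.60 and 8.41 ± 0.80 CPM, with log2 fold changes of 0.18 (SE 0.41) and 0.54 (SE 0.15) that were not called.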

How the data were processed

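The authors mapped the reads of stranded poly(A) libraries with Salmon against RefSeq transcripts of GRCh38 and deposited, per library, estimated counts and TPM of each transcript. They also deposited a DESeq2 table, of which only the authors' mean signal over all samples was used, while its fold changes and p-values were not. All 8 libraries were grouped from their labels, 4 untreated and 4 with doxycycline.

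Estimated counts were summed per gene symbol through accessions without version (RefSeq table of GRCh38.p14) and rounded, 34792 genes in all. The main test was the quasi-likelihood test of edgeR 4.0.16 in R 4.3.3 with origin as a block, TMM scaling and filterByExpr, adjusted by Benjamini-Hochberg at 0.05, after testing on simulated data. CPM are counts per 1000000 matched reads after TMM scaling, log2 ratios within a pair used a pseudocount of 0.5 CPM, and ratios given as times are of plain CPM. Intervals for 0 counts cover counting error only. Same-origin libraries deviated together (correlations 0.497, 0.661, 0.686 and 0.672, against -0.454 to 0.153 between origins). The methods of the study name no block. DESeq2 1.42.0, its size factors, no filter, curated transcripts only, no pairing, leaving out each pair, other pseudocounts and TPM were alternatives. The untreated clone 5 file is laid out differently from the rest, with sorted entries.

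Members and lists were chosen with earlier results of these data known. Named were all members, in each list the called genes (at most 6 by size), the 3 most abundant of lists without a call, the 6 genes most like ADAM9, its 2 nearest tested genes on each side, and FEZF1. Of the other ADAM genes, ADAM11, ADAM32 and ADAM28 were the 3 most abundant, at 1.03, 0.490 and 0.162 TPM on average.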

Additional observations from a re-analysis of the deposited data

Results flagged for a closer look

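A library well outside the range of its group was seen in 6 of 59 groups of 4, and about 1 in 20 groups, here 3.0, would show this by chance. ADAM19 in clone 3 was at 34.02 CPM untreated against 5.37 to 9.69 CPM in the other origins, and at 32.84 CPM with doxycycline against 7.13 to 11.5 CPM. CDH2 in clone 3 was at 43.91 CPM untreated against 25.6 to 27.3 CPM, and at 36.62 CPM with doxycycline against 19.8 to 21.0 CPM. MMP1 was at 1079 CPM in untreated clone 3 against 168 to 316 CPM, and its treated clone 3 library, at 1243 CPM against 346 to 541 CPM, was also the highest. DLG2 was at 70.5 CPM in untreated clone 6 against 40.2 to 43.5 CPM. For ADAM19, CDH2 and MMP1 clone 3 was the highest origin with and without the drug.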

How the results depend on the processing

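Without the replicate block, 1 gene, 0 members and 0 list genes were called in place of 1221, 1 and 15, and the log2 fold change of ADAM9 was -2.25, no longer called. DESeq2 with the replicate block called 1920 genes, and summing curated transcripts alone called 493 genes and 7 list genes. Leaving out 1 pair gave 175 to 699 genes, 0 to 1 members and 2 to 9 list genes. ADAM9 then lay between -3.09 and -2.21, and it was not called without the clone 5 pair (-2.27) or the clone 6 pair (-2.21). Since the contrast chose ADAM9, its calls are a description and nothing is read from them. The fewest genes, 175, were called without clone 5, and 230 without clone 6. ADAM15 changed sign with DESeq2 (-0.00188), with its size factors (-0.00367) and without the polyclonal or clone 6 pair (leave-one-out range -0.0696 to 0.0798). Without clone 6, ADAM17 went to 0.0165 (leave-one-out range -0.0687 to 0.0165) and ADAM22 to 0.0612 (range -0.191 to 0.0612). With a pseudocount of 0.05 CPM, the mean log2 ratios of ADAM23 and ADAM33, both near 0 reads, moved to 0.51 and -0.93. Among genes with at least 80% of the authors' mean count matched, a choice made after seeing the data, 1142 genes and 13 list genes were called, and ADAM9 and ADAM10 are not among those genes. The matched part of ADAM9 and ADAM10 limits what depth alone would allow.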
